A study of Mus musculus with 6 samples.

Results

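Vehicle-treated mouse embryonic fibroblasts with a single E861A allele of Adar were compared with vehicle-treated fibroblasts in which both Adar alleles were floxed, at day 7 of reprogramming. The comparison takes 3 of the 6 libraries of the study, chosen by genotype and treatment alone: 1 HET library (Adar1 Fl/E861A with vehicle) and 2 WT libraries (Adar1 Fl/Fl with vehicle, WT 1 and WT 2). The other 3 libraries received 4OHT, the hydroxylated tamoxifen commonly used to switch on Cre fusion proteins: MUT (Adar1 Fl/E861A) and KO 1 and KO 2 (Adar1 Fl/Fl). They serve here to see whether a difference between the allele backgrounds recurs in other libraries, and the KO pair also enters a second estimate of the spread. All 6 libraries came from fibroblasts with OSKM, the factors Oct4, Sox2, Klf4 and Myc, and were made from total RNA freed of ribosomal RNA. HET therefore has no Adar deletion by design, and the groups share the floxed allele, OSKM and the vehicle. The labels name no Cre, no embryo and no culture for any library. With 1 HET library, the E861A allele, the embryo, the culture and the library preparation cannot be told apart, and p-values measure only the spread within the WT pair, or within the WT and KO pairs where stated, which may be technical.

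ADAR1 converts adenosine to inosine within double-stranded RNA. Inosine is read as guanosine, and edited duplexes are poorer ligands for the cytosolic sensor MDA5, so that in many tissues loss of editing switches on interferon-stimulated genes. The glutamate altered in E861A belongs to the catalytic site of the deaminase domain, and mice heterozygous for its change to alanine are generally healthy. Embryonic fibroblasts keep a memory of where in the body they arose in the form of HOX, T-box and LIM homeobox gene expression, and cultures from different embryos or dissections can differ in it.

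The altered codon was located to show what separates HET from WT by design. Adar (ENSMUSG00000027951.16) lies on the plus strand of GRCm38 chromosome 3, from 89715022 to 89753446. The E861A codon of the transcript Adar-203, which encodes 1178 residues, is a glutamate codon in exon 9 of 15, at 89746630 to 89746632 of chromosome 3. In the other 4 annotated coding transcripts the codon of that number is another one or does not exist. The reference sequence is printed with the codon in capitals and 15 bases on either side, from GENCODE release M 21.
Adar-203: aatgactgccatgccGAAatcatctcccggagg
Whole-gene values cannot separate the alleles. Adar stood at 17.0 FPKM in HET against 19.6 and 19.5 in WT, a difference of -0.19 (SE 0.13) on the log2(FPKM + 1) scale that was not called. FPKM divide fragments by transcript length and library size, so levels of different genes can be compared per length. Adarb1, the gene of the editing enzyme ADAR2, was at 3.54 FPKM in HET and 2.45 and 2.74 in WT, below the minimum for testing.

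The vehicle libraries were alike in the number of genes detected and in estimated depth, but not in all cell type markers. The HET and WT libraries had between 8950 and 9060 named genes at 5 FPKM or more. Rows without a gene name held 8.26% of all FPKM in HET and 9.62% and 10.2% in WT. Depth was estimated from the steps of low values at 15800000 to 17400000 fragments per vehicle library. Across the 9404 genes tested, Pearson's r on the log2 scale was 0.969 and 0.968 between HET and WT 1 and WT 2, and 0.994 between the WT libraries. Fibroblast markers were present in all 3 libraries. Vim, which encodes vimentin, stood at 1100 FPKM in HET against 1728 and 1737 in WT, and Thy1 at 252 against 125 and 98.4. Col1a1 was at 1290 FPKM in HET, between the WT values of 1383 and 1192. Xist was at most 0.0128 FPKM in the vehicle libraries, and the Y-linked genes Ddx3y, Uty, Kdm5d and Eif2s3y were present in each, with Eif2s3y lower in HET (27.8 FPKM against 40.6 and 43.3). Markers of other cell types were read as sums over each list. Of 10 erythroid markers 0 reached the minimum for testing, and of 16 macrophage markers 1 did, Laptm5; the macrophage list summed to 58.0 FPKM in HET against 31.6 and 28.7 in WT. The trophoblast and endoderm list (4 of 21 tested, 6 at 0 in all 3 libraries) summed to 136 against 105 and 114. The neural and neural crest list (6 of 21 tested) summed to 232 against 189 and 205, and the endothelial list (2 of 12) to 46.9 against 28.0 and 27.2. The keratinocyte list (6 of 16) summed to 345 against 268 and 272. On the lower side, the adipocyte list (4 of 12) summed to 40.5 against 72.0 and 66.1, and the cartilage and bone list (5 of 22) to 42.5 against 84.6 and 79.3. The part of these sums in any result was not tested. In bulk RNA, fewer cells of a type and less RNA per cell cannot be told apart.

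HET differed from both WT libraries by more than they differed from each other in a broad set of genes. The limma fit on log2(FPKM + 1), with the spread taken from the WT pair, called 950 genes higher in HET (10.1% of 9404) and 1115 lower (11.9%), together 2065 (22.0%), at a Benjamini-Hochberg adjusted p under 0.05. By position alone, HET lay above both WT libraries in 4011 genes (42.7%) and below both in 3678 (39.1%). A distance of 2-fold or more, 1 on the log2(FPKM + 1) scale, was reached by 71 genes above both WT libraries (0.755%) and by 168 below both (1.79%), while the WT libraries differed that much in 5 genes. The median difference over all genes was 0.01. Called differences began at 0.26 on the log2 scale, so that many calls are small, and the SE of a gene ran from 0.09 to 0.35 with a median of 0.13.

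How many genes are called rests on how the spread is estimated. With 1 residual degree of freedom per gene, limma took the spread of each gene wholly from the trend over genes (infinite prior degrees of freedom), and HET, a lone library, was assumed to vary like WT. With the spread of the WT and KO pairs together, on 2 residual degrees of freedom, 1364 of the 2065 calls were made again, 514 of them higher (5.47%) and 850 lower (9.04%). Without a filter on low values the prior fell to 1.58 degrees of freedom and limma called 0 genes, with 3439 at an unadjusted p under 0.05. Leaving out WT 1 gave 1163 calls and leaving out WT 2 gave 1081, with the spread then taken from the KO pair and the lone HET and WT libraries assumed to vary like it. In every list described below with 0 limma calls in a direction, 0 members of that direction had an unadjusted p under 0.05, except the oxidative phosphorylation genes (0 called higher, 4 at an unadjusted p under 0.05). Adjusted p-values printed for single genes below are limma's with the spread of the WT and KO pairs over 6 libraries, the more cautious of these 2 spreads. Differences and SEs are those of the 3 vehicle libraries.

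**Figure D1:**
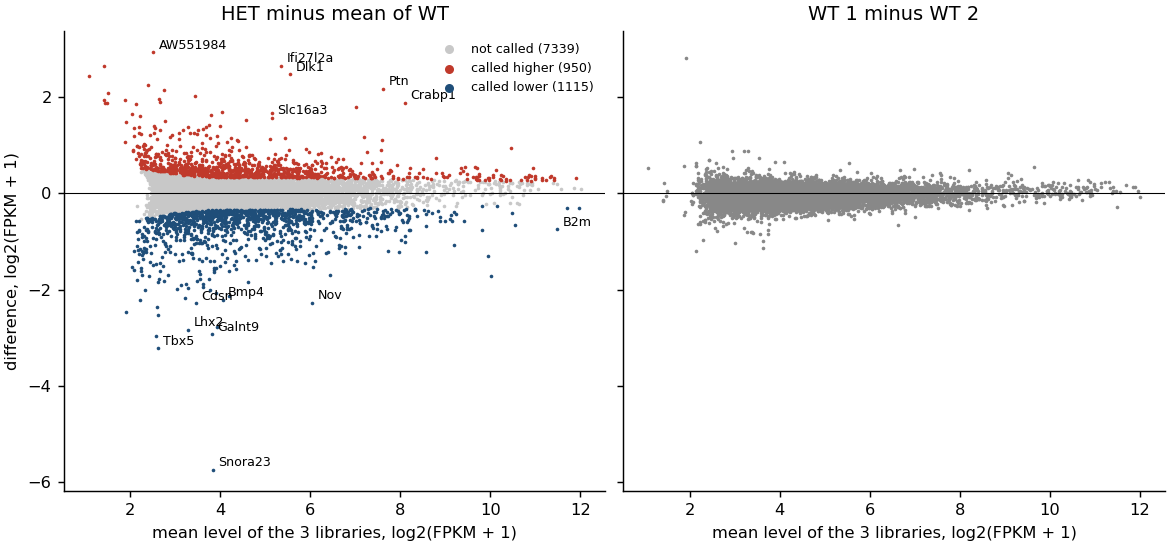
Each point is 1 of 9404 genes, by mean level of the 3 vehicle libraries on the log2(FPKM + 1) axis and by the log2 difference of HET from the WT mean (left) or of WT 1 from WT 2 (right). The 950 genes called higher and the 1115 called lower spread further from 0 than the differences between the WT libraries; the lowest point on the left is the small RNA gene Snora23.

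Several genes known for setting position in the limb were far lower in HET. Tbx5 (ENSMUSG00000018263.11, chromosome 5, 119832668 to 119885219, plus strand), a T-box factor that marks the forelimb, stood at 0.379 FPKM in HET, 12.7 in WT 1 and 11.1 in WT 2. HET was thus at 0.0318 of the WT mean, a difference of -3.22 (SE 0.18, adjusted p = 2.76e-07). Lhx2 (ENSMUSG00000000247.11, chromosome 2, 38339281 to 38369733, plus strand), a LIM homeobox factor of the growing limb bud, stood at 1.64 FPKM in HET and 17.8 in both WT libraries. Its difference was -2.84 (SE 0.15, adjusted p = 2.76e-07). Its relative Lhx9 was at 3.95 FPKM in HET against 17.5 and 18.9. Lmx1b, a LIM factor of the dorsal limb, was at 1.89 FPKM against 9.52 and 8.83, and Msx2, a homeobox factor downstream of BMP signals, at 0.974 against 6.66 and 7.32. In each of these 5 genes the HET library lay far below WT libraries that nearly coincided.

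Other genes known from limb patterning were higher in HET. Tbx4, the hindlimb counterpart of Tbx5, was at 15.7 FPKM in HET against 5.32 and 6.002 in WT (difference 1.33, SE 0.15). Pitx1, which specifies hindlimb identity, was at 7.70 FPKM against 2.04 and 2.67 (difference 1.38, SE 0.21). Meis1, a homeobox cofactor of proximal limb segments, was at 14.4 against 2.98 and 2.91, and Meis2 at 13.3 against 5.60 and 5.46. HET was above both WT libraries in all 4. Pou3f3, a POU factor of neural and kidney development, stood at 8.02 FPKM against 0.351 and 0.516, and Pantr1, the long non-coding RNA transcribed next to it, at 5.54 FPKM against 0.436 and 0.

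Most HOX genes tested were lower in HET. Of 9 HOX rows tested, 7 were called lower, 1 higher and 1 was not called. Hoxa13, expressed in the most distal limb, was at 2.24 FPKM in HET against 8.68 and 6.99, and Hoxd13 at 29.6 against 58.4 and 70.3. Hoxa11 was at 5.72 FPKM against 12.1 and 11.98, its antisense transcript Hoxa11os at 5.80 against 20.2 and 20.3, and Hoxb9 at 1.03 against 4.56 and 5.16. Without known strand, reads of Hoxa11 and Hoxa11os cannot be told apart. On the list of HOX and limb genes, 34 members had a row of their own and 9 of them were tested. Of the 9 tested, 7 were called lower and 2, Tbx4 and Pitx1, higher. Their median was -1.44 against 0.01 over all genes, and every call was also made with the spread of the WT and KO pairs. Tbx5, Lhx2, Lhx9, Hoxa13 and Hoxb9 reached the minimum for testing only in WT, and Pitx1 only in HET. Such a filter favours large differences, so the counts and the median describe only the members that passed it.

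**Figure D2:**
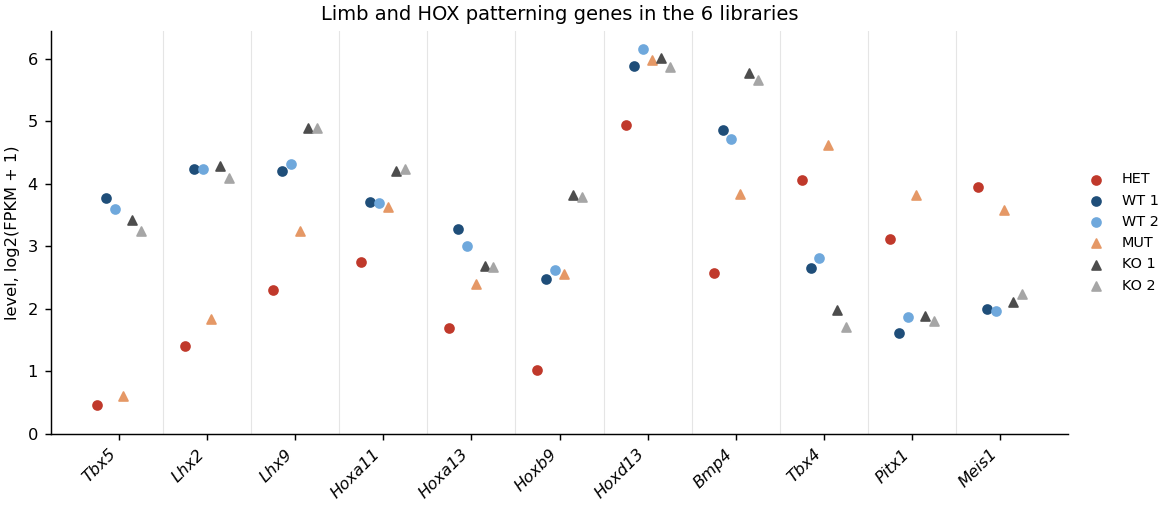
Level on the log2(FPKM + 1) axis of patterning genes in each of the 6 libraries, circles for vehicle and triangles for 4OHT. HET lies below both WT libraries from Tbx5 to Bmp4 and above both from Tbx4 to Meis1, and MUT lies on the same side of KO in these genes except Hoxd13.

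Genes outside patterning were also among the largest differences. On the lower side, Adcyap1, which encodes the neuropeptide PACAP, was at 0.506 FPKM in HET against 10.3 and 11.07 in WT (difference -2.96, SE 0.19). Galnt9, a glycosyltransferase that starts O-linked glycans, was at 2.60 against 26.8 and 26.2, and Trabd2b, an inhibitor of WNT ligands, at 3.21 against 29.0 and 26.9. Hapln1, a link protein of hyaluronan matrix, was at 0.900 against 9.12 and 10.99. Cdsn, a cell adhesion protein of the epidermis, was at 2.81 FPKM against 16.8 and 18.4, and C2cd4a at 1.01 against 9.56 and 9.20. Nov, a secreted matricellular protein, was at 22.1 against 109 and 112, the calcium channel gene Cacna1h at 2.41 against 14.6 and 14.3, and Pcp4l1 at 5.81 against 31.7 and 26.8. HET lay below both WT libraries in each of these genes, and the WT libraries were far closer to each other than to HET. Snora23, a small nucleolar RNA, was listed at 0 in HET and at 49.6 and 56.5 FPKM in WT. It was listed at 0 in MUT, KO 1 and KO 2 too, and FPKM of so short a transcript are unstable.

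On the higher side, AW551984 was at 21.04 FPKM in HET against 2.11 and 1.65 in WT, 11.2 times the WT mean (difference 2.94, SE 0.19, adjusted p = 1.21e-06). Dlk1 (ENSMUSG00000040856.17, chromosome 12, 109452823 to 109463336, plus strand), an imprinted Notch ligand relative found on precursor cells, was at 146 FPKM against 26.9 and 23.95 (difference 2.48, SE 0.13, adjusted p = 3.15e-07). Ptn, which encodes the growth factor pleiotrophin, was at 538 FPKM against 114 and 123, and Crabp1, a carrier of retinoic acid, at 658 against 177 and 178. These 2 were the most abundant transcripts among the largest differences. Tac2, a tachykinin, was at 13.8 FPKM against 1.85 and 2.41, Sema7a, a membrane semaphorin, at 17.2 against 3.72 and 2.58, and Egfl6, a matrix protein, at 26.7 against 5.72 and 5.78. Mab21l2, which lies within 5 Mb of Adar, was at 14.1 FPKM against 2.58 and 3.59, and Medag at 34.5 against 9.90 and 10.2. Erdr1 was at 295 against 70.7 and 99.0. Its gene lies in the pseudoautosomal region, whose copies are hard to assemble, so its level is uncertain.

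Most interferon-stimulated genes were lower in HET. Of 46 tested members, 33 were called lower, 1 higher and 12 neither way, HET lay below both WT libraries in 44, and the median was -0.52. The spread of the WT and KO pairs left 24 called lower, and 15 were called lower without WT 2. Isg15, the ubiquitin-like modifier, stood at 203 FPKM in HET against 321 and 293 in WT (difference -0.59, SE 0.12, adjusted p = 0.0144), a call that was lost without WT 1. Ifit1, which binds RNA lacking a methylated cap, stood at 28.4 FPKM against 51.1 and 71.0 (difference -1.06, SE 0.13, adjusted p = 0.00124). Cmpk2 was at 4.98 against 10.04 and 14.6, and Rsad2, which encodes the antiviral enzyme viperin, at 5.56 against 9.18 and 17.1. WT 2 was the higher WT library in these last 3, so part of the size of the difference rests on it. Irf7, a transcription factor of the pathway, was lower as well, at 44.1 FPKM against 74.8 and 73.4. Ifih1, which encodes MDA5, was at 6.15 FPKM against 9.05 and 12.4 (adjusted p = 0.0108), and Irgm1, a GTPase of the IRG family, at 30.8 against 47.0 and 60.1. Mx1 was at 4.28 FPKM against 5.98 and 13.2, WT libraries that differed from each other 2-fold or more, and its adjusted p was 0.0608. Close paralogs such as Ifit3 and Ifit3b share 1 row, which was at 59.5 FPKM against 100 and 160.

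The member called higher was Ifi27l2a, an interferon-inducible membrane protein gene on chromosome 12. It stood at 138 FPKM in HET against 24.9 and 17.6 in WT, a difference of 2.66 (SE 0.13, adjusted p = 4.06e-06). Of 12 tested genes of MHC class I presentation, 7 were called lower and 0 higher, with a median of -0.51, and 4 were called lower without WT 2. B2m, the invariant light chain, was at 2032 FPKM against 3082 and 3774 (adjusted p = 0.0031, call lost without WT 2). Nlrc5, the transactivator of these genes, was at 3.17 against 6.42 and 6.37, and the peptidase gene Erap1 at 7.22 against 11.6 and 13.3. H2-K1, a classical heavy chain, was at 220 against 305 and 346. Of the 18 tested genes of RNA editing and double-stranded RNA sensing, 2 were called lower and 2 higher (11.9% and 10.1% over all genes), a share near the background. The higher ones were the tRNA deaminases Adat1 (5.32 FPKM against 2.78 and 3.27) and Adat2 (10.3 against 7.04 and 6.97, call lost without WT 2).

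**Figure D3:**
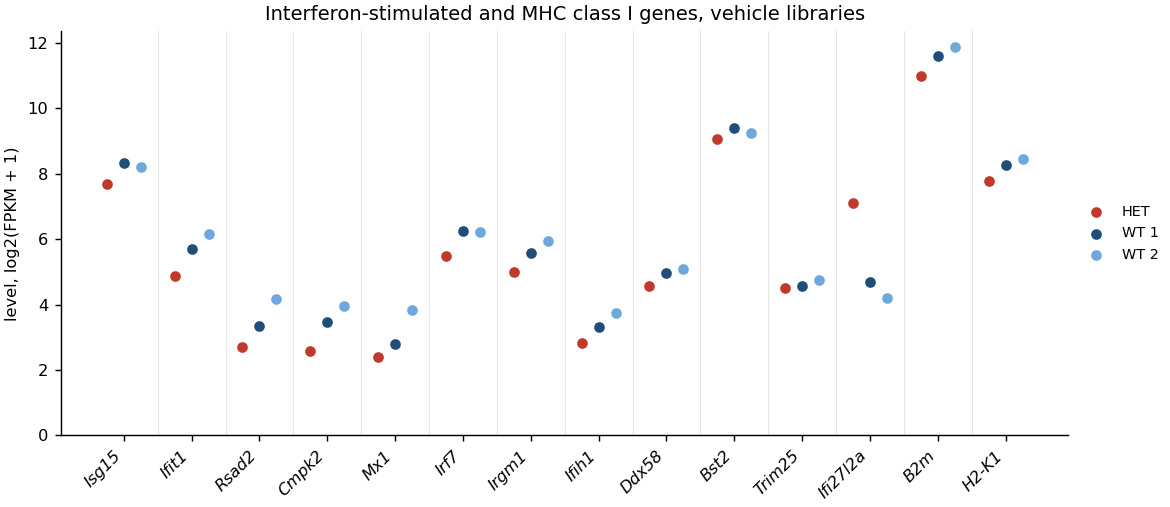
Level on the log2(FPKM + 1) axis of 14 interferon-stimulated and MHC class I genes in HET, WT 1 and WT 2. HET is the lowest of the 3 libraries in every gene drawn except Ifi27l2a, where it is the highest; Bst2 and Trim25 were not called.

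Promoters of the interferon genes were searched for the core of the interferon-stimulated response element, GAAANNGAAA on either strand, in the 250 bases before the RefSeq start (GRCm38.p6). It was present in 2.98% of 32851 promoters, in 3.08% of those of 6958 tested genes matched, and in 10 of 34 list promoters (29.4%). Members called lower held it in 9 of 24 cases and members not called in 1 of 10. Stretches around the matches are printed for 4 of the genes named above, 5′ to 3′ on the gene's strand, with matches in capitals and 20 bases on either side. In Isg15 3 matches overlap, and in Irgm1 2 do. They span chr19:34640765-34640833 (plus strand), chr12:26456543-26456592, chr11:48871421-48871470 and chr4:156200855-156200916 (minus strand).
Ifit1: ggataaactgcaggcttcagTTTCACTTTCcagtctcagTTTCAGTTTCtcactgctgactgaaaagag
Rsad2: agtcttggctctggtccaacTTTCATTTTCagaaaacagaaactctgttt
Irgm1: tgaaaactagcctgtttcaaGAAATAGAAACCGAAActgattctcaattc
Isg15: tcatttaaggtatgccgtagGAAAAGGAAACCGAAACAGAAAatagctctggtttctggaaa
A match describes letters in a window and not binding.

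TGF-beta target and contractile genes were lower in HET. Of 23 tested TGF-beta and BMP pathway genes, 16 were called lower and 1 higher, with a median of -0.58. Under the spread of the WT and KO pairs, and without either WT library, 13 were called lower. Among ligands, Bmp4 stood at 4.96 FPKM in HET against 28.2 and 25.3 in WT (difference -2.21, SE 0.13, adjusted p = 6.49e-07) and Tgfb2 at 6.87 against 14.0 and 15.3. Grem1, a secreted BMP antagonist, was at 44.6 FPKM against 108 and 106. Among targets, Ctgf, a matricellular protein gene, was at 33.5 FPKM against 85.0 and 81.2. Angptl4 was the member called higher, at 27.0 FPKM against 17.8 and 17.5.

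Contractile and myofibroblast genes were called lower in 10 of 17 cases and higher in 0, with a median of -0.47, and without WT 1 in 6. Actg2, smooth muscle gamma-actin, was at 9.50 FPKM in HET against 38.9 and 34.3 (difference -1.84, SE 0.13, adjusted p = 2.89e-06). Myh11, smooth muscle myosin, was at 1.02 against 4.69 and 5.47, and calponin gene Cnn1 at 6.30 against 21.7 and 18.9. Acta2, the common marker of myofibroblasts, was at 163 FPKM against 279 and 278 (adjusted p = 0.00353). The WT libraries of these 4 genes lay close together and apart from HET.

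Matrix genes went both ways. Of 50 tested, 20 were called lower and 12 higher, with a median of -0.15. Without WT 1 there were 12 lower and 6 higher, and without WT 2 12 lower and 7 higher. Ltbp2, a latent TGF-beta binding protein relative of elastic fibres, was at 16.9 FPKM in HET against 49.1 and 46.1, and Eln, elastin, at 65.1 against 148 and 105 (adjusted p = 0.00333). Col12a1, a collagen that decorates fibrils, was at 34.7 FPKM against 92.2 and 94.3, and Timp2, an inhibitor of metalloproteinases, at 353 against 765 and 719. Higher were Col15a1, a basement membrane collagen, at 7.83 FPKM against 1.84 and 1.81, and decorin, Dcn, at 93.9 against 58.4 and 62.1. Postn was at 411 FPKM against 307 and 309 (adjusted p = 0.0354), a call lost without either WT library. Col3a1, at 857 FPKM against 1054 and 953, was not called.

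Mesenchymal regulators and surface proteins were also split, with 11 of 30 called lower and 6 higher and a median of -0.09. The transcription factors of the epithelial to mesenchymal transition were on the lower side: Snai2 stood at 15.02 FPKM in HET against 24.8 and 29.9, Twist1 at 73.6 against 114 and 123, Snai1 at 21.6 against 34.7 and 28.5 and Zeb2 at 3.24 against 4.88 and 5.55. Zeb1 was not called (17.9 FPKM against 17.1 and 18.3). Cdh2, N-cadherin, was at 21.1 FPKM against 30.8 and 32.5 (adjusted p = 0.0118). Higher were Thy1, given above (difference 1.18, SE 0.12, adjusted p = 0.000213), and Fap, a surface protease of activated fibroblasts, at 6.45 FPKM against 0.770 and 0.716 (adjusted p = 5.03e-05). Pdgfra, a fibroblast receptor also used as an endoderm marker, was at 37.5 FPKM against 25.6 and 23.3.

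Epithelial genes were slightly higher in HET, and the calls were fragile. Of 17 tested, 11 were called higher and 0 lower, HET lay above both WT libraries in 16, and the median was 0.38. Only 3 were called with the spread of the WT and KO pairs, and 2 without WT 1 or without WT 2. Krt19, a simple epithelial keratin, was at 33.8 FPKM in HET against 14.2 and 16.5 (difference 1.10, SE 0.13, adjusted p = 0.000163). Cdh1, E-cadherin, was at 35.7 FPKM against 27.4 and 26.3 (difference 0.40, SE 0.13, adjusted p = 0.0893), and its call was lost without either WT library. Epcam, at 62.0 FPKM against 47.9 and 52.2, was not called.

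Pluripotency genes were split. Of 30 tested, 9 were called higher and 7 lower, with a median of 0.00. Under the spread of the WT and KO pairs 2 were called higher and 4 lower. There were 3 higher and 2 lower without WT 1, and 3 higher and 7 lower without WT 2. Nanog, a core factor of the pluripotent state, was at 17.7 FPKM in HET, between 20.8 and 15.2 in WT. Of the introduced factors, whose transcripts these values do not separate from those of the cells' own genes, Sox2 was lower at 14.8 FPKM against 32.7 and 26.6 (difference -0.95, SE 0.13, adjusted p = 0.000906). Pou5f1, which encodes Oct4, was at 272 FPKM against 222 and 175 (adjusted p = 0.453) and Myc at 14.6 against 11.06 and 11.05 (adjusted p = 0.0901). Both were called higher with the WT spread, and lost the call without either WT library. Klf4, at 21.3 against 21.1 and 16.5, was not called. Lefty2, a Nodal antagonist, was at 16.9 FPKM against 7.15 and 5.92 (adjusted p = 0.000743). The germ line and pluripotency genes Dppa3 (2.11 FPKM against 7.68 and 5.27) and Dppa4 (1.69 against 5.15 and 4.35) were lower.

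Most proliferation genes tested were called higher, by modest amounts. Of 31 mitotic genes tested, 23 were called higher and 0 lower, HET lay above both WT libraries in 30, and the median was 0.42. The calls numbered 16 with the spread of the WT and KO pairs, 7 without WT 1 and 9 without WT 2. Ccnb2, a mitotic cyclin, was at 68.1 FPKM in HET against 44.7 and 42.0 (difference 0.64, SE 0.13, adjusted p = 0.00377). Plk1, a mitotic kinase, was at 85.0 against 54.6 and 57.6, and Mki67 at 21.9 against 15.8 and 14.9. Of 35 replication genes, 23 were called higher and 0 lower, with a median of 0.38. The calls numbered 11 with the spread of the WT and KO pairs, 8 without WT 1 and 7 without WT 2. Rfc4, a clamp loader subunit, was at 28.0 FPKM against 16.2 and 17.6, and Tk1, thymidine kinase, at 65.0 against 40.6 and 40.9. Of 25 p53 targets and CDK inhibitors, 1 was called higher, 6 lower and 18 neither way, with a median of -0.075, and 3 were called lower without WT 1 and 2 without WT 2. Cdkn1c, an imprinted CDK inhibitor, was the member called higher, at 23.1 FPKM against 8.20 and 8.31, and the inhibitor gene Cdkn2b was lower, at 37.2 against 58.4 and 57.5.

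Glycolysis and hypoxia-response genes were higher. Of 30 tested, 21 were called higher and 2 lower, with a median of 0.52. Of these, 19 were called higher with the spread of the WT and KO pairs; without WT 1 there were 12. Egln3, a HIF prolyl hydroxylase induced by low oxygen, was at 28.4 FPKM in HET against 7.89 and 9.11 (difference 1.63, SE 0.14, adjusted p = 1.2e-05). Slc16a3, the lactate exporter, was at 71.7 FPKM against 22.6 and 24.5 (difference 1.57, SE 0.13, adjusted p = 5.21e-06). Ankrd37, a HIF target, was at 21.4 against 7.70 and 9.71, and the glucose transporter gene Slc2a1 at 289 against 150 and 156. Enzymes of the pathway shifted less, with Pgk1 at 625 FPKM against 352 and 394 and Ldha at 1066 against 710 and 764. The HIF targets Car12 (3.33 FPKM against 6.13 and 6.55) and Adm (21.3 against 28.2 and 27.7) were the 2 called lower, and Car9 and Vegfa were not called.

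The hypoxia response element core ACGTG was counted in the same windows on either strand. It was present in 16.6% of all promoters, in 26.8% of those of tested genes, and in 16 of 29 list promoters (55.2%). It occurred in 11 of 20 members called higher and in 5 of 7 not called. The stretches of the 3 transporter and hydroxylase genes named above are printed with matches in capitals, on the gene's strand. They lie at chr12:54204079-54204123 (minus strand), chr11:120949020-120949066 and chr4:119108689-119108733 (plus strand).
Egln3: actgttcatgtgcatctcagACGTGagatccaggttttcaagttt
Slc16a3: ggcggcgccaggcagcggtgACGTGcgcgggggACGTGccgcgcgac
Slc2a1: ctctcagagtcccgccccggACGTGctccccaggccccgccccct

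Cholesterol synthesis genes were higher, with 12 of 23 called higher, 0 lower and a median of 0.37. The spread of the WT and KO pairs left 8 called, and 5 were called without WT 1. Dhcr7, a reductase that completes cholesterol, was at 23.6 FPKM in HET against 12.6 and 13.9 (adjusted p = 0.00364), and Mvd, mevalonate decarboxylase, at 26.1 against 17.7 and 15.9.

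Stress genes were mixed by branch. Of 38 tested targets of the amino acid response factors ATF4 and CHOP, 13 were called higher and 3 lower, with a median of 0.26, and 6 were called higher without WT 1. The higher ones included amino acid transport and synthesis genes, such as Slc7a5 at 65.9 FPKM in HET against 39.0 and 42.0 (adjusted p = 0.00364) and Psat1 at 124 against 78.6 and 95.2. The 3 lower ones were Ddit3, which encodes CHOP (38.4 FPKM against 54.5 and 52.0, adjusted p = 0.024, call lost without either WT library), the stress cofactor gene Nupr1 (61.9 against 115 and 102) and Cebpb (32.3 against 51.5 and 59.5). Atf4 itself was at 151 FPKM against 122 and 121 (adjusted p = 0.14). Chaperone and degradation genes of the endoplasmic reticulum were called lower in 8 of 32 cases and higher in 0, with a median of -0.17. Over all genes 11.9% were called lower and 10.1% higher. The calls numbered 3 with the spread of the WT and KO pairs, 2 without WT 1 and 0 (limma, 4 at an unadjusted p under 0.05) without WT 2. Over all genes the spread of the WT and KO pairs called 9.04% lower, so the list was near the background under that spread. Hspa5, the chaperone BiP, was at 247 FPKM against 280 and 323 and was not called, and Sel1l was at 21.8 against 29.2 and 32.2 (call lost without WT 2).

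**Figure D4:**
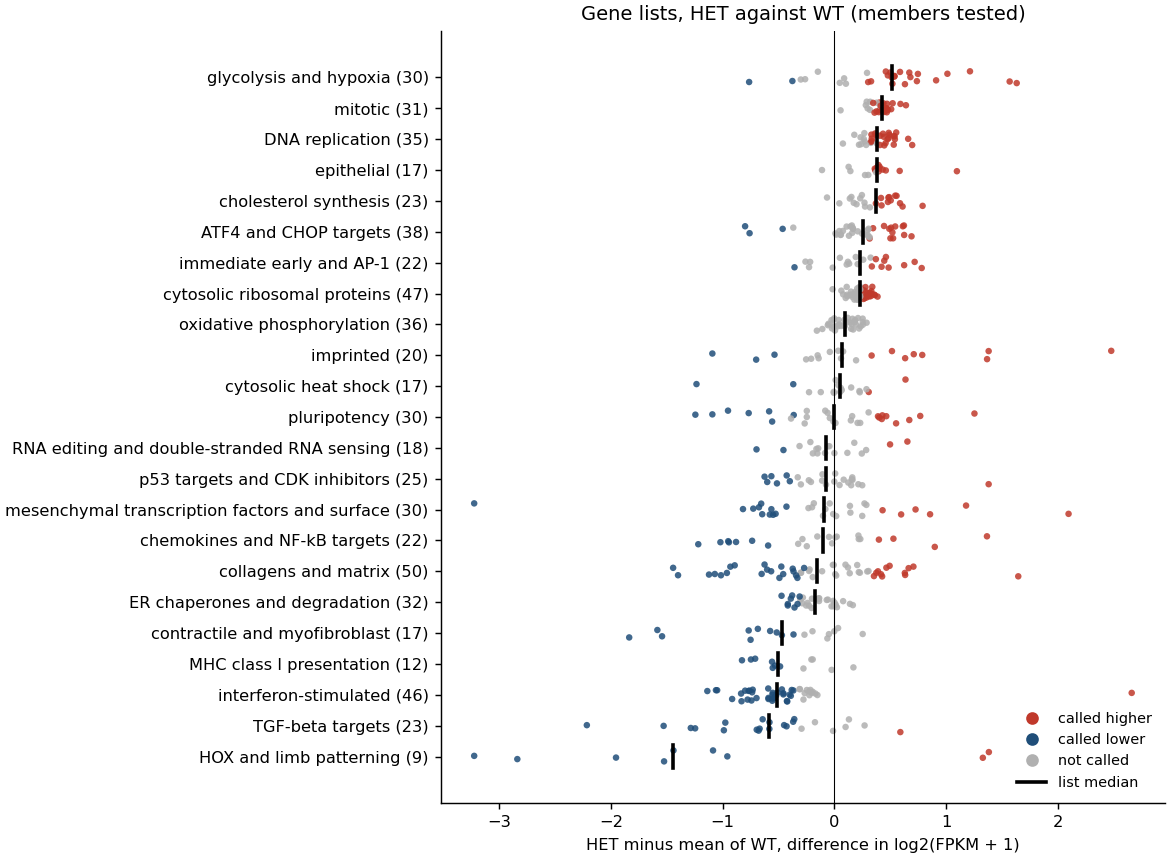
Difference of HET from the WT mean on the log2(FPKM + 1) axis for each tested member (points) of the main gene lists with at least 9 tested members, whose number stands in parentheses, with the list median as a bar. Glycolysis, mitotic and replication genes lie mostly above 0, and interferon-stimulated, TGF-beta and HOX or limb genes mostly below it.

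Imprinted genes included some of the larger differences. Of 20 tested, 8 were called higher and 3 lower, with 5 higher without WT 1. Besides Dlk1 and Cdkn1c, the higher genes included Rtl1 (10.1 FPKM in HET against 2.33 and 4.52) and Igf2 (462 against 327 and 319), and Mest was lower (40.96 against 84.5 and 92.6). Dlk1 and Rtl1 belong to the same imprinted domain as the non-coding RNA Meg3, whose row, shared with microRNA genes, was at 186 FPKM against 123 and 115. The row of H19, the non-coding neighbour of Igf2, was at 2165 FPKM against 1201 and 1064. Paternally and maternally expressed members of both domains were thus higher together.

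The neighbourhood of Adar held a share of calls near that of all genes, but with more of them higher than lower. Within 5 Mb of the gene, 90 genes were tested and 23 were called (25.6%, against 22.0% over all genes by the same test). Of the 90, 16 were called higher and 7 lower, whereas over all genes 10.1% were called higher and 11.9% lower. Their median difference was 0.07 against 0.01 over all genes. The 2 at 2-fold or more were Mab21l2, given above, and S100a7a, at 1.64 FPKM in HET against 5.34 and 5.51. The row of Mab21l2 carries the same coordinates as that of Lrba, which was also called higher. With the spread of the WT and KO pairs, the higher calls of Pmvk, S100a3, S100a10, Them5, Rps3a1 and Rps27 were lost. The lower call of Glmp was lost too. Whether the lean to higher calls near Adar exceeds that of other stretches of equal length was not tested. By chromosome, the share called ran from 17.6% to 26.1% over the autosomes and X apart from chromosome 6, where 144 of 454 tested genes were called (31.7%) and 5.51% were at 2-fold or more. Chromosome 6 carries the HOXA cluster, Ptn and Actg2.

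The same allele backgrounds after 4OHT were read in libraries not used for the calls. The names MUT and KO imply that 4OHT deletes the floxed alleles. MUT would then keep only the E861A allele, and KO no intact one. MUT against KO is thus another contrast than HET against WT, and neither recurrence nor a turn of sign is a like-for-like repeat. MUT lay above both KO libraries in 3095 of the 9404 genes (32.9%) and below both in 4321 (45.9%). Of the 950 genes called higher in HET, MUT was above both KO libraries in 680 (71.6%) and below both in 140. Of the 1115 called lower, MUT was below both in 716 (64.2%) and above both in 257. Position alone sets no size: the median MUT difference was 0.29 for genes called higher, -0.185 for those called lower and -0.043 for all. Many of these genes were low after 4OHT, and 744 of the 950 and 1036 of the 1115 reached 5 FPKM in a MUT or KO library. Among genes at 2-fold or more the shares were 63 of 71 (88.7%) above and 129 of 168 (76.8%) below. Pearson's r between the HET difference and the MUT difference was 0.453 across all 9404 genes and 0.603 across the 2065 called, a description over genes, which are not independent replicates. The difference of the vehicle and 4OHT differences passed limma's test on 6 libraries in 465 of the 9404 genes (4.94%), and in 34 of the 143 named genes tested, which were partly chosen for a large vehicle difference. HET and MUT share the allele background and may share an embryo, which the labels do not give.

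Of the 9 tested HOX and limb genes with a row of their own, 7 lower and 2 higher in HET, MUT lay below both KO libraries in 6 and above both in 2. Hoxd13 lay between them, at 62.4 FPKM against 63.3 and 57.2. The row that joins Hoxd9, Hoxd10 and Hoxd11, called lower in HET (6.76 FPKM against 8.80 and 9.67), was on the other side in MUT, at 15.3 against 8.36 and 7.11. Tbx5 was at 0.513 FPKM in MUT against 9.72 and 8.43 in KO, Lhx2 at 2.58 against 18.4 and 16.0, and Bmp4 at 13.3 against 53.9 and 49.7. Tbx4 was at 23.6 FPKM in MUT against 2.95 and 2.25, and Dlk1 at 26.5 against 5.31 and 4.997. Slc16a3 and Egln3 were higher in MUT too, at 23.5 FPKM against 4.13 and 4.18 and at 9.38 against 2.08 and 2.19. The median MUT difference was 0.88 for mitotic and 0.58 for replication genes, 0.44 for glycolysis and hypoxia genes, and -0.35 for TGF-beta targets. Of 23 lists with at least 9 tested members, 10 had medians of opposite sign under vehicle and after 4OHT. The median of interferon-stimulated genes was 0.075 after 4OHT against -0.52 under vehicle, that of MHC class I genes 0.123 against -0.51, and that of matrix genes 0.595 against -0.15. ATF4 and CHOP targets had a median of -0.181 after 4OHT against 0.258, with MUT below both KO libraries in 27 of 38, and ER chaperones 0.089 against -0.174. The other lists with such a turn were those of mesenchymal factors, chemokines and NF-kB targets, oxidative phosphorylation, immediate early genes and cytosolic heat shock proteins. Ifi27l2a, at 34.8 FPKM in MUT against 2.70 and 3.92 in KO, kept its direction. Isg15, at 886 FPKM against 962 and 1155, lay below both KO libraries. Whether these medians differ between the treatments was not tested as a list.

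**Figure D5:**
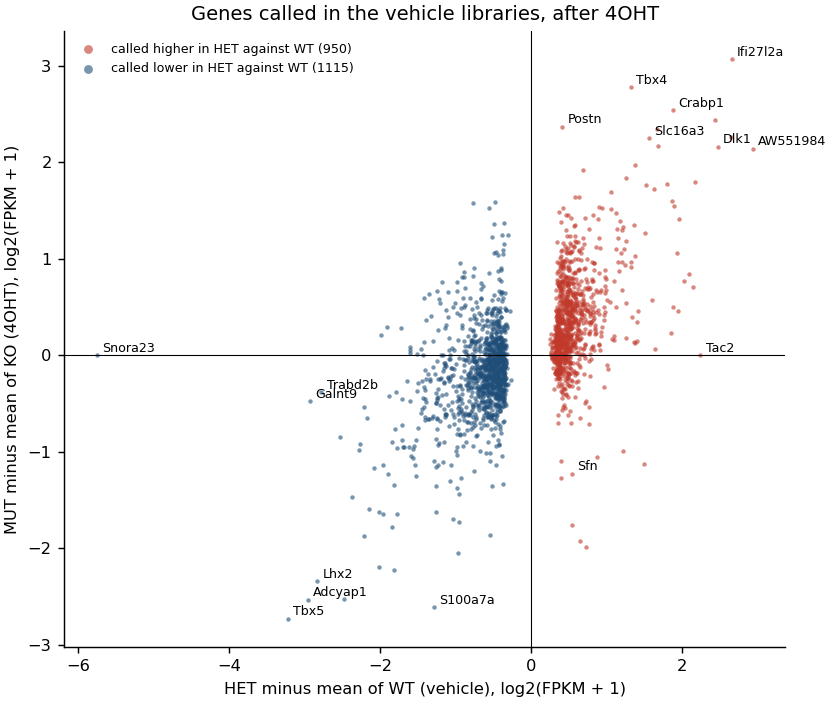
Each point is 1 of the 2065 genes called in HET against WT, by its log2 difference under vehicle (x axis, HET minus the WT mean) and after 4OHT (y axis, MUT minus the KO mean). Tbx5, Lhx2 and Adcyap1 are low and Ifi27l2a, Crabp1 and Dlk1 high on both axes, whereas Galnt9, Trabd2b and Tac2 lie near 0 on the y axis. These last genes were low in all libraries with 4OHT, where the scale shrinks differences, and MUT was still below both KO libraries in Galnt9 and Trabd2b.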

How the data were processed

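TRIzol extraction and Ribo-Zero removal of ribosomal RNA preceded library preparation, per the labels' protocols. The authors deposited 1 table per library with gene names and FPKM, per the file headers, written with decimal commas. TopHat2 2.1.1, Bowtie2 2.3.0 and Cufflinks 2.2.1 are listed with GRCm38 in the submitters' processing notes, without roles. Annotation, strand use and scaling across libraries: not given in the sources used here. Groups came from the sample titles.

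From 24879 rows per library, 1021 without a name were left out and the row of highest mean was kept for each of 314 repeated symbols, which left 23406, of which 528 rows name several genes. Genes with at least 5 FPKM in at least 1 of the 3 vehicle libraries were tested (9404) on log2(FPKM + 1), a scale that understates differences of low genes, with limma 3.58.1 in R 4.3.3 (group means; eBayes with trend; two-sided tests with Benjamini-Hochberg adjustment; called under 0.05). FPKM are no counts, so no count test was applied. The prior degrees of freedom were infinite, and the SE of a gene then follows its level. HET contributed no spread of its own. The same fit on all 6 libraries gave the second set of p-values and the difference between the vehicle and the 4OHT contrasts. Gene lists are described by counts and medians, with no list test. The fit was run on simulated data with changes planted in known genes. The simulated HET was given the spread of WT, so this run cannot test whether HET varies like WT.

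Genes named by rule are 24 fixed genes, the 3 largest called differences of each of 36 lists, the 12 largest called differences in each direction among genes averaging 5 FPKM or more (without small RNA, predicted and several-gene rows) and the called genes within 5 Mb of Adar, in all 145. Other genes named, such as Lmx1b, Msx2, Meis2, Pou3f3 and Snora23 and list members beyond the first 3, were chosen after their values were seen. The groups, lists and named genes were chosen with earlier results of these data known. Coordinates are those of GENCODE release M 21 on GRCm38, which held 1 gene for 139 of the 145 symbols, and promoters come from RefSeq (GRCm38.p6). Depth was estimated from the lowest FPKM values multiplied by length, in genes of 1 transcript, with fragments taken to be 200 bases long. Alternatives were the pseudocount, the filter, the scaling, the trend, the source of the spread, summed rows and leaving out each WT library. Some genes that these rules and lists cover are not reported here by name; they remain in the counts.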

Additional observations from a re-analysis of the deposited data

Results flagged for a closer look

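In 34 of 143 named genes the HET minus WT difference under vehicle and the MUT minus KO difference after 4OHT themselves differed (limma on 6 libraries, difference of the differences, adjusted p under 0.05 over all genes), as did 465 of all 9404 genes (4.94%). The genes were partly chosen for a large vehicle difference, which by itself widens such gaps. A value below 0 means a lower HET difference under vehicle than the MUT difference after 4OHT, on the log2(FPKM + 1) scale. That scale shrinks differences between values near 0, so low levels after 4OHT can widen a gap by themselves. Col15a1, Egfl6, Eln, Hapln1, Dppa3, Galnt9, Trabd2b, Fap and Tac2 were low in both MUT and KO. Egfl6, for example, was at 0.841 FPKM in MUT against 0.121 and 0.0424 in KO. Its value above 0 does not mean a larger ratio under vehicle.

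Among matrix and matricellular genes, Col3a1 (-2.23), Postn (-1.95), Hapln1 (-1.69), Eln (-1.42), Nov (-1.35), Col12a1 (-1.25), Comp (-1.20) and Ltbp2 (-0.88) lay lower under vehicle, and Col15a1 (1.58), Egfl6 (1.27) and the protease gene Fap (1.25) higher. Postn shows the pattern in its levels: 411 FPKM in HET against 307 and 309 in WT, but 54.5 in MUT against 9.73 and 9.73 in KO. Among interferon, MHC and chemokine genes, Ifit1 (-0.93), Cmpk2 (-1.04), Nlrc5 (-1.02), Cxcl12 (-1.80) and Cx3cl1 (-1.07) lay lower. Galnt9 (-2.46), Trabd2b (-2.40) and Cacna1h (-1.53) were far lower in HET than in WT and less so in MUT than in KO, where Galnt9 was at 0.375 FPKM against 0.878 and 0.952. Tac2 (2.25) was listed at 0 in all 3 libraries with 4OHT. Epidermal and epithelial genes went both ways, with Cdsn at -1.30, Sfn at 1.77, Krt19 at 0.90, S100a7a at 1.33 and S100a16 at 0.79. Sfn changed sides: it was at 131 FPKM in HET against 95.0 and 85.0, and at 11.9 in MUT against 29.1 and 29.6. The remaining genes were Dppa3 (-1.91), Sema7a (1.44), Cdkn1c (1.25), Nes (1.02), Cebpb (-0.96), Actg2 (-0.94), Plin4 (-0.88), Birc5 (-0.71) and Slc16a3 (-0.68).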

How the results depend on the processing

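Over 11 alternatives the number of genes called ranged from 0 to 2652, against 2065. Leaving out a WT library, with the spread from the KO pair, gave 1081 to 1163 calls, 425 to 458 higher and 623 to 738 lower. The spread of the WT and KO pairs gave 1369 calls, 515 of them higher. Without a filter on low values limma called 0 genes, 0 higher and 0 lower, with 3439 at an unadjusted p under 0.05 and a prior of 1.58 degrees of freedom. The count at 2-fold or more above both WT libraries was 113 without a filter and with a filter at 1 FPKM, with MUT above both KO libraries in 98. A pseudocount of 5 left 118 genes at 2-fold or more, 31 above (MUT above KO in 29) and 87 below (MUT below KO in 69), as adding 5 shrinks differences of low genes. The share of higher genes among the calls was 46.0%, and 36.5% without WT 1 and 37.6% with the spread of the WT and KO pairs. Of the 143 named genes tested, 134 lost the call without a filter, 29 without WT 1 and 31 without WT 2. Nanog, not called at -0.00948, turned to 0.00949 after quantile normalization and ranged from -0.22 to 0.20 on leaving out a WT library. Kdm5d, not called at -0.07, ranged from -0.13 to 0.0022. The cause was not tested in these cases. No paired analysis was possible because HET has 1 library with no replicate number. Low genes are limited by depth: at 15800000 to 17400000 estimated fragments, values under 5 FPKM in all 3 libraries were left untested.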

Other observations

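Housekeeping groups differed little. Of 47 tested cytosolic ribosomal protein genes, 19 were called higher in HET with a median of 0.23, among them Rpl3 at 1442 FPKM against 1129 and 1079, but limma called 0 with the spread of the WT and KO pairs (14 at an unadjusted p under 0.05), 0 without WT 1 (3) and 0 without WT 2 (0). Of 36 nuclear genes of oxidative phosphorylation limma called 0 (4 at an unadjusted p under 0.05; 1 called after quantile normalization), with a median of 0.09. Immediate early genes were called higher in 9 of 22 cases and lower in 1, with 4 higher without either WT library. Fosb, a subunit of the transcription factor AP-1, was at 49.6 FPKM in HET against 32.1 and 27.6 in WT, and Nr4a1, an orphan nuclear receptor, at 100.5 against 69.3 and 60.7.

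Single genes of other programmes stood out by size. C3, the central complement component, was at 6.97 FPKM in HET against 2.05 and 2.14, and Cxcl12, the ligand of CXCR4, at 216 against 518 and 490. The small heat shock protein gene Cryab was at 36.4 FPKM against 89.4 and 84.7, while the inducible Hspa1b was at 12.1 against 7.24 and 7.63. Pparg, the nuclear receptor of fat cell formation, was at 6.49 FPKM against 14.1 and 13.3, and its target Fabp4 at 21.4 against 41.1 and 38.1. Lpl, on the same adipocyte list, went the other way, at 5.66 against 3.05 and 3.25. Col10a1, a collagen of hypertrophic cartilage, was at 4.36 against 21.8 and 19.7. On the same cartilage and bone list Sox9 (6.35 FPKM against 3.18 and 3.15) and Alpl (10.8 against 8.35 and 5.99) were higher. The surface glycoprotein gene Cd34 was at 27.9 FPKM against 13.3 and 12.4. In MUT, Pparg, Fabp4, Cryab and Col10a1 were also below both KO libraries, and C3, Cd34 and Hspa1b above both.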
